A study of Mus musculus with 10 samples.

Results

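The genes described here are 10 listed as limiting NF-kB signalling or degrading inflammatory mRNA: Zc3h12a, Zfp36, Zfp36l1, Zfp36l2, Tnfaip3, Tnip1, Tnip2, Birc3, Cyld and Otulin. They were listed by name for what their products do, with earlier results of these data known. Each was found by symbol among 56748 gene identifiers. All 10 were among the 15942 genes that passed the filter on low counts. The RNA came from beta cells sorted by flow cytometry from islets of NOD mice, males of 6 to 8 weeks of age, an inbred strain that develops autoimmune diabetes. Islets were cultured intact for 48 hours with lipopolysaccharide (LPS) at 50 ng/ml (5 libraries, numbered 6 to 10) or were left untreated (5 libraries, numbered 1 to 5). LPS, a component of the outer membrane of Gram-negative bacteria, is sensed by Toll-like receptor 4. The islets were dispersed and sorted only after the culture, so other islet cells were present during the exposure. The libraries are described as independent samples, but the animals behind each are not given, and p-values measure the spread between these libraries.

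NF-kB is held inactive by inhibitors that are destroyed when ubiquitin chains on receptor complexes recruit kinases. Cells limit this signal by several routes. Enzymes that edit ubiquitin chains and the adaptors that guide them, such as A20, the product of Tnfaip3, dismantle the receptor complexes. RNA-binding proteins such as regnase, the product of Zc3h12a, and tristetraprolin, the product of Zfp36, destroy the mRNAs of cytokines and chemokines. Several of these brakes are themselves transcribed in response to NF-kB and so form negative feedback. In beta cells A20 is known to restrain inflammatory and death signals.

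In cells from LPS-treated islets 5 of the 10 genes were higher, namely Zc3h12a, Birc3, Tnfaip3, Tnip1 and Zfp36, and 0 were lower. Zc3h12a was 5.80-fold higher, Birc3 3.31-fold, Tnfaip3 2.66-fold, Tnip1 1.60-fold and Zfp36 1.34-fold. Zfp36l1, Zfp36l2, Tnip2, Cyld and Otulin did not pass the test, and 0 of the 10 were lower at an unadjusted edgeR p under 0.05, by DESeq2 or by limma-voom. A gene was called at a Benjamini-Hochberg adjusted p under 0.05 in the quasi-likelihood test of edgeR, adjusted over all genes tested. By that rule 3.77% of all genes tested were called, 2.84% higher and 0.928% lower. The list of 10 was chosen with earlier results known, so its count is a description beside these shares. In 5 of the 10 genes, the called ones, every LPS library lay above every untreated library, beside 3.84% of all genes tested. The calls rest on the same libraries, so this separation is not separate support for them. The median log2 fold change of the 10 genes was 0.37, against -0.01 over all genes tested.

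The promoters of the genes are shown because NF-kB target genes often carry kappaB sites, the DNA elements that NF-kB dimers bind, near their start. RefSeq promoter windows on GRCm38.p6, from 250 bases before to 50 bases after a start, were found for 9 of the 10 genes, with 10 windows in all because Tnfaip3 has a pair of starts. Both strands were searched for the kappaB consensus of 10 letters, for its TTTCC form, which can overlap it, and for AP-1 (TGANTCA), CRE (TGACGTCA) and ISRE core letters. Each window below is written in the direction of transcription, and capitals mark matches to the kappaB consensus or its TTTCC form. Of the 9 genes, Tnfaip3 (in the window shown) and Tnip1, which were called, and Cyld, which was not, held a kappaB match. The window of Zc3h12a, the gene with the largest fold change of the 10, held none and is shown for contrast.
Tnfaip3, chr10:19015361-19015660, minus strand: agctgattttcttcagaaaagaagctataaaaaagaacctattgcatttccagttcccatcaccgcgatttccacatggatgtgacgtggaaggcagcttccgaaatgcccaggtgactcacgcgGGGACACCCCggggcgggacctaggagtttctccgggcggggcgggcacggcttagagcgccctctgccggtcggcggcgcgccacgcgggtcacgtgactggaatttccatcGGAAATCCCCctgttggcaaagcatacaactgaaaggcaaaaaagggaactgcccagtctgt
Tnip1, chr11:54962891-54963190, minus strand: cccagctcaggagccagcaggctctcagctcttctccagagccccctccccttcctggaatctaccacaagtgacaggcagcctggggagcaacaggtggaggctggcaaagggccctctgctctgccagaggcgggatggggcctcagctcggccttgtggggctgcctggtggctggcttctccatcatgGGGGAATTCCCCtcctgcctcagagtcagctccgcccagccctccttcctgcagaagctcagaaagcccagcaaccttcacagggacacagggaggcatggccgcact
Cyld, chr8:88696778-88697077, plus strand: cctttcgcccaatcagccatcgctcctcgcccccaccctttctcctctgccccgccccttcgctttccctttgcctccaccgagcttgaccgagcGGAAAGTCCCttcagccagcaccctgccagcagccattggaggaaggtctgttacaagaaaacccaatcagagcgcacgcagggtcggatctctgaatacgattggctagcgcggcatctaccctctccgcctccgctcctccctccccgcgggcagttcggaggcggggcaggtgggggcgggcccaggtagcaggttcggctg
Zc3h12a, chr4:125127832-125128131, minus strand: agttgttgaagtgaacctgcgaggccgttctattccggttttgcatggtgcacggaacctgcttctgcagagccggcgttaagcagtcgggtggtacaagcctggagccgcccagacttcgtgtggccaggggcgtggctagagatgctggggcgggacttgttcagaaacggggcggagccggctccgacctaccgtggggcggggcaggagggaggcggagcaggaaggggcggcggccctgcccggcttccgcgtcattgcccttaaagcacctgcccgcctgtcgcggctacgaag

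In the Tnfaip3 window shown a kappaB consensus match began 125 bases before the start and another 12 bases before it, and an AP-1 match began 136 bases before it. The match at 12 bases also had the TTTCC form. The other Tnfaip3 window, chr10:19011914-19012213, held no match to any of the letters searched. The Tnip1 window held 3 overlapping kappaB matches that began 58, 57 and 56 bases before the start. In the Cyld window a match to both the consensus and the TTTCC form began 155 bases before the start. The Zfp36l1 window held an AP-1 match, 129 bases before the start. None of the 10 windows held the CRE or ISRE core letters. Of all 32851 RefSeq promoter windows of this length, 4.51% held the kappaB consensus, 1.63% the TTTCC form, 7.81% AP-1, 1.79% CRE and 3.44% the ISRE core. A match describes letters in this window of the reference strain and is not a measured binding site.

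The mRNA decay factors were led by Zc3h12a. This gene encodes an endonuclease that cuts stem-loops in the 3′ UTRs of inflammatory mRNAs, and its own transcript is known to be one of its targets. Levels are given as CPM, read counts scaled by the effective size of each library. Zc3h12a had CPM of 41.6, 29.8, 20.8, 26.7 and 34.4 in LPS libraries 6 to 10, against 5.63, 6.11, 4.600, 5.42 and 4.64 in untreated libraries 1 to 5. The lowest LPS library was more than 3 times the highest untreated library, and the untreated libraries lay close together. Mean levels were 30.7 ± 7.86 CPM in LPS and 5.28 ± 0.655 CPM in untreated libraries (SD, n = 5 each). The log2 fold change was 2.54 ± 0.17 (SE; edgeR adjusted p = 3.68e-06), and by fold change the gene ranked 37 among all genes tested. It was called under all 23 alternative settings.

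Zfp36 encodes tristetraprolin, which binds AU-rich elements in 3′ UTRs and recruits the CCR4-NOT deadenylase. It had 372, 398, 359, 429 and 487 CPM in LPS libraries 6 to 10, against 317, 327, 281, 277 and 323 CPM in untreated libraries 1 to 5. The groups did not overlap, but the lowest LPS library stood close to the highest untreated one. Means were 409 ± 51.2 CPM in LPS and 305 ± 24.0 CPM in untreated libraries (SD, n = 5 each). On the log2 scale Zfp36 was higher by 0.42 ± 0.09 (SE), with an edgeR adjusted p of 0.0149. This call was lost without untreated 3 (edgeR adjusted p = 0.0562) and with either of the covariates described with the cell type markers.

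The close relatives Zfp36l1 and Zfp36l2 encode zinc-finger proteins that also bind AU-rich elements. Zfp36l1 had 11.2, 6.32, 7.07, 6.01 and 3.31 CPM in LPS libraries 6 to 10, against 5.32, 8.22, 5.70, 10.7 and 3.20 CPM in untreated libraries 1 to 5. Both groups spanned nearly the same range. Its fitted log2 change, 0.03 ± 0.32 (SE), with an edgeR adjusted p of 0.981, had the largest error of the 10 genes, and its sign changed under 7 of the 23 alternatives. Zfp36l2 had 51.2, 43.4, 43.4, 41.1 and 36.5 CPM in LPS libraries 6 to 10, against 39.9, 28.7, 38.5, 31.9 and 35.1 CPM in untreated libraries 1 to 5. Of the 5 LPS libraries 4 lay above all untreated ones, and LPS 10 did not. The log2 fold change of Zfp36l2 was 0.31 ± 0.10 (SE; edgeR adjusted p = 0.152), and it was called only with 1 surrogate variable in the fit (adjusted p = 0.0307).

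**Figure D1:**
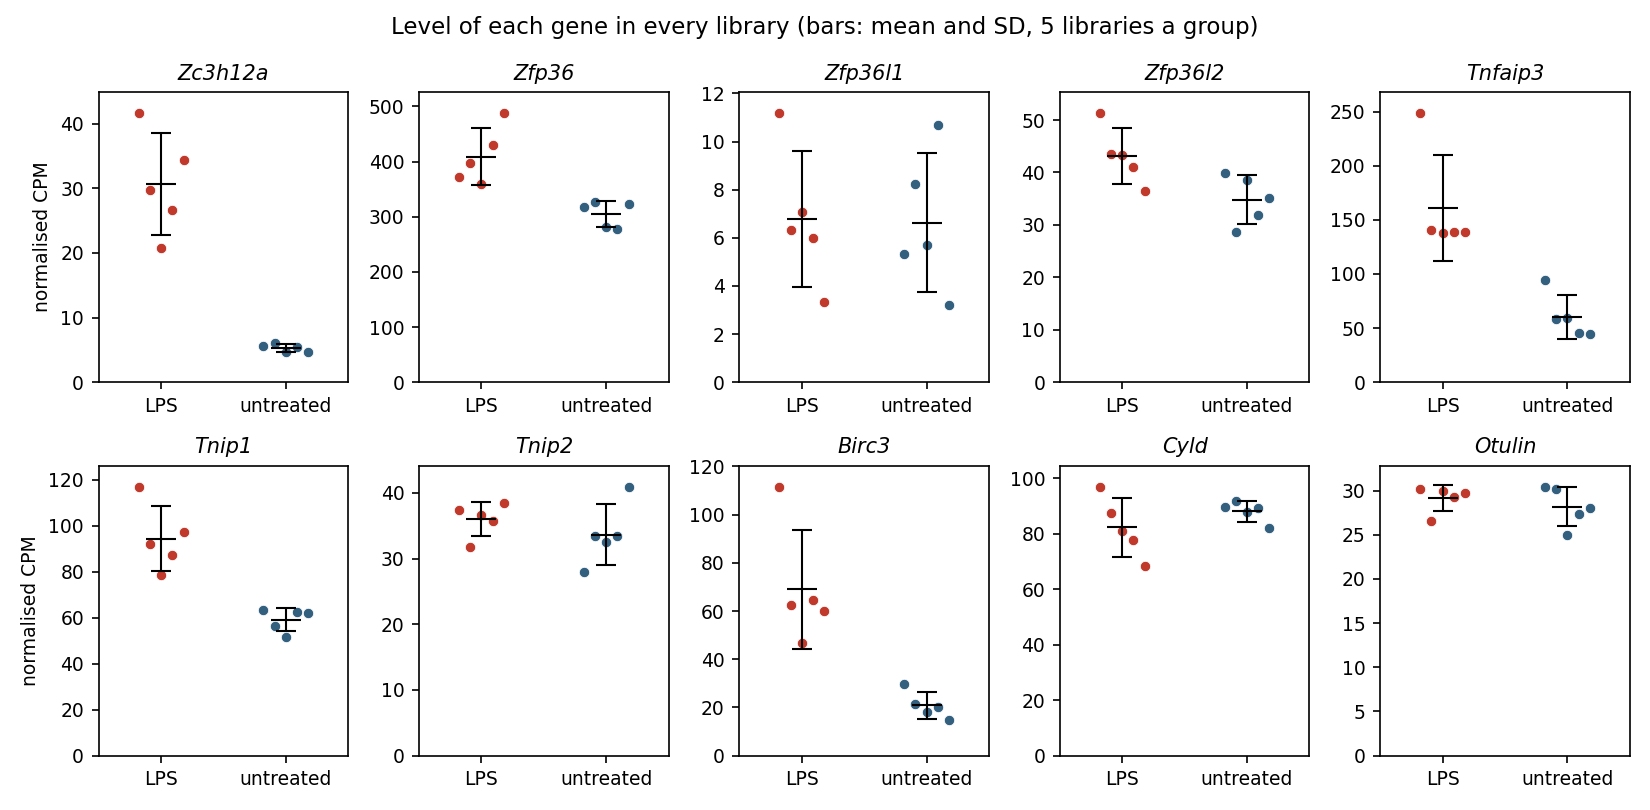
Normalised read counts (CPM) of the 10 genes in LPS (red, left) and untreated (blue, right) libraries, with each point a library and bars for the mean and SD over 5 libraries. The groups are separated in Zc3h12a, Zfp36, Tnfaip3, Tnip1 and Birc3 and overlap in the other panels, and LPS 6, the leftmost red point, is the highest LPS library in 8 panels, all but Zfp36 and Tnip2.

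Among the ubiquitin editors, Tnfaip3 encodes A20, which removes and adds ubiquitin chains on signalling proteins. It had 248, 141, 138, 138 and 138 CPM in LPS libraries 6 to 10, against 94.8, 58.2, 59.5, 45.7 and 44.1 CPM in untreated libraries 1 to 5. LPS 6 stood far above the other LPS libraries, which were nearly equal, and untreated 1 stood above the other untreated ones. Means were 161 ± 48.9 CPM in LPS and 60.5 ± 20.4 CPM in untreated libraries (SD, n = 5 each), and the log2 fold change was 1.41 ± 0.22 (SE; edgeR adjusted p = 0.00193). With any 1 library left out the gene stayed called, with log2 fold changes of 1.19 to 1.63.

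Tnip1 and Tnip2 encode ABIN adaptors, which bind ubiquitin chains and A20. Tnip1 had 117, 91.9, 78.7, 87.4 and 97.3 CPM in LPS libraries 6 to 10, against 63.5, 56.5, 51.4, 62.6 and 61.9 CPM in untreated libraries 1 to 5. All LPS libraries lay above all untreated ones. Mean Tnip1 was 94.4 ± 14.3 CPM in LPS and 59.2 ± 5.14 CPM in untreated libraries (SD, n = 5 each), and its log2 fold change was 0.67 ± 0.10 (SE; edgeR adjusted p = 0.00124). Tnip2 had 37.4, 31.7, 36.6, 35.7 and 38.5 CPM in LPS libraries 6 to 10, against 28.0, 33.4, 32.5, 33.5 and 40.9 CPM in untreated libraries 1 to 5. The groups overlapped, and untreated 5 was the highest of all 10 libraries. Its log2 fold change was 0.10 ± 0.09 (SE; edgeR adjusted p = 0.704).

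Birc3 encodes cIAP2, a ubiquitin ligase that builds chains on receptor complexes and, with cIAP1, marks the NF-kB-inducing kinase for destruction. Chains on receptor complexes also carry the signal, as described above, so this gene is not only a brake. It had 111, 62.4, 46.8, 64.4 and 60.2 CPM in LPS libraries 6 to 10, against 29.5, 21.4, 18.1, 20.2 and 14.9 CPM in untreated libraries 1 to 5. As with Tnfaip3, LPS 6 and untreated 1 were the highest of their groups, and the groups did not overlap. Birc3 averaged 69.1 ± 24.7 CPM in LPS and 20.8 ± 5.45 CPM in untreated libraries (SD, n = 5 each). Its log2 difference, 1.73 ± 0.22 (SE), had an edgeR adjusted p of 0.000448 and passed the threshold under all 23 alternatives, with log2 values of 1.33 to 1.89.

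The deubiquitinases Cyld and Otulin cleave ubiquitin chains, Otulin those of the linear type. Cyld had 96.8, 87.4, 81.0, 77.8 and 68.5 CPM in LPS libraries 6 to 10, against 89.8, 92.0, 87.7, 89.2 and 82.0 CPM in untreated libraries 1 to 5. The LPS libraries reached both above and below the untreated range. Its log2 fold change was -0.10 ± 0.08 (SE; edgeR adjusted p = 0.646). Otulin had 30.2, 26.6, 29.95, 29.3 and 29.7 CPM in LPS libraries 6 to 10, against 30.4, 30.1, 25.03, 27.3 and 28.0 CPM in untreated libraries 1 to 5. All LPS libraries lay within the untreated range. The log2 fold change of Otulin, 0.05 ± 0.07 (SE; edgeR adjusted p = 0.826), had the smallest error of the 10 genes.

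**Figure D2:**
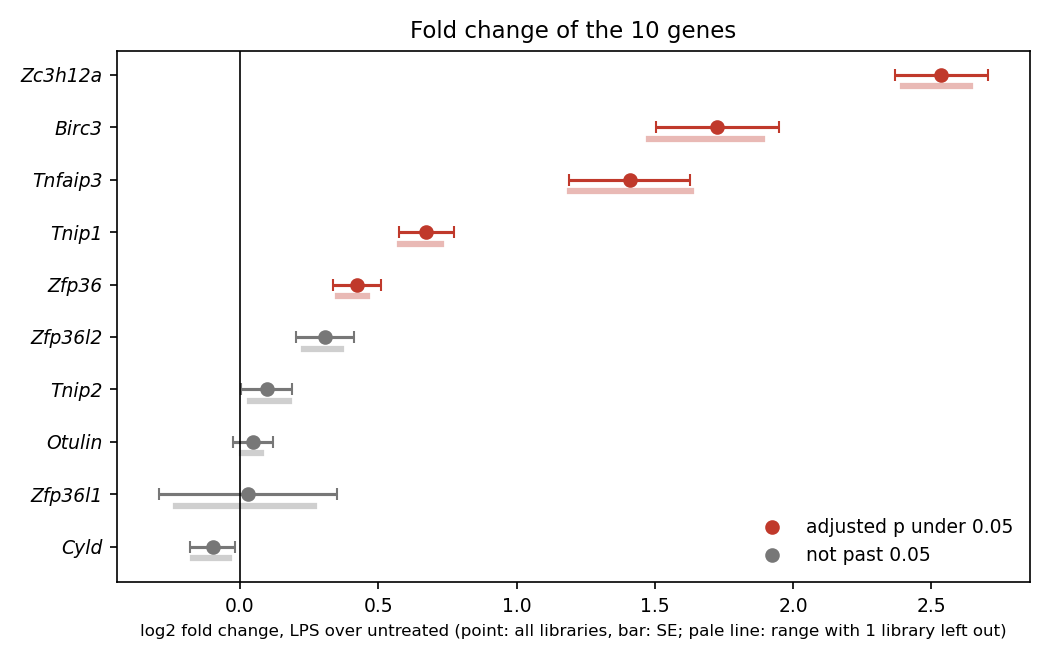
Log2 fold change of each gene, LPS over untreated, with its SE (thin bar) and the range of values when any 1 library was left out (pale line), red where the edgeR adjusted p is under 0.05. Zc3h12a lies at 2.54, Birc3 at 1.73 and Tnfaip3 at 1.41, while the 5 genes not called lie between -0.10 and 0.31.

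Levels of different genes were compared as CPM per kilobase of the union of annotated exons. In LPS libraries Zfp36 was the most abundant of the 10 at 118 ± 14.8 CPM per kilobase, followed by Tnfaip3 at 34.99 ± 10.6 and Tnip1 at 31.2 ± 4.71, whose ranges (mean ± SD) overlapped. Otulin at 19.6, Tnip2 at 17.6, Birc3 at 16.3, Zfp36l2 at 12.2, Zc3h12a at 11.1 and Cyld at 10.1 CPM per kilobase came next, and each overlapped its neighbour. Zfp36l1 was lowest in LPS libraries at 2.27 ± 0.948. In untreated libraries Zfp36 was again first at 87.9 ± 6.91 CPM per kilobase, followed by Tnip1 at 19.5, Otulin at 18.9, Tnip2 at 16.4, Tnfaip3 at 13.2, Cyld at 10.8 and Zfp36l2 at 9.86. Of these, neighbours from Tnip1 to Zfp36l2 overlapped. Birc3 at 4.91 ± 1.29 stood apart from both neighbours, while Zfp36l1 at 2.22 ± 0.968 and Zc3h12a at 1.92 ± 0.238 CPM per kilobase overlapped at the bottom of the untreated order. Zc3h12a was thus last of the 10 genes in untreated libraries, and Zfp36 first in both groups.

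Whether related genes responded unequally was asked with the ratio of their counts within each library, which does not depend on scaling. The ratios rest on the same libraries as the fold changes above, so a changed ratio is not separate support for those calls. Log2 ratios of 8 pairs were compared between the groups by exact permutation of the libraries (two-sided, smallest possible p 0.00794), with adjustment over the 8. The Zc3h12a to Zfp36 ratio was -3.77 ± 0.37 in LPS and -5.85 ± 0.18 in untreated libraries (log2, SD, n = 5 each), a difference of 2.08 ± 0.18 (SE; exact permutation, adjusted p = 0.0159). The ratio of the adaptors Tnip1 to Tnip2 also differed, by 0.56 ± 0.14 (SE; exact permutation, adjusted p = 0.0254), with 4 of 5 LPS libraries above all untreated ones. Birc2 encodes cIAP1, the near relative of cIAP2, and its own log2 fold change was -0.01 ± 0.06 (SE; edgeR adjusted p = 0.965). The Birc3 to Birc2 ratio was 0.07 ± 0.42 in LPS and -1.64 ± 0.34 in untreated libraries (log2, SD, n = 5 each), a difference of 1.71 ± 0.24 (SE; exact permutation, adjusted p = 0.0159).

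Among the editors, Tnfaip3 changed relative to both deubiquitinases. The Tnfaip3 to Cyld ratio differed by 1.53 ± 0.22 and the Tnfaip3 to Otulin ratio by 1.37 ± 0.24 on the log2 scale (SE; exact permutation, adjusted p = 0.0159 for each). In both ratios every LPS library lay above every untreated one. Within the tristetraprolin family the differences were smaller than or near their errors, at 0.37 ± 0.48 for Zfp36 to Zfp36l1, 0.11 ± 0.19 for Zfp36 to Zfp36l2 and -0.27 ± 0.41 for Zfp36l1 to Zfp36l2 (SE; exact permutation, adjusted p = 0.587 for each). These errors leave room for differences of the size seen in Zfp36 itself. The 5 changed ratios passed the threshold with any 1 library left out.

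**Figure D3:**
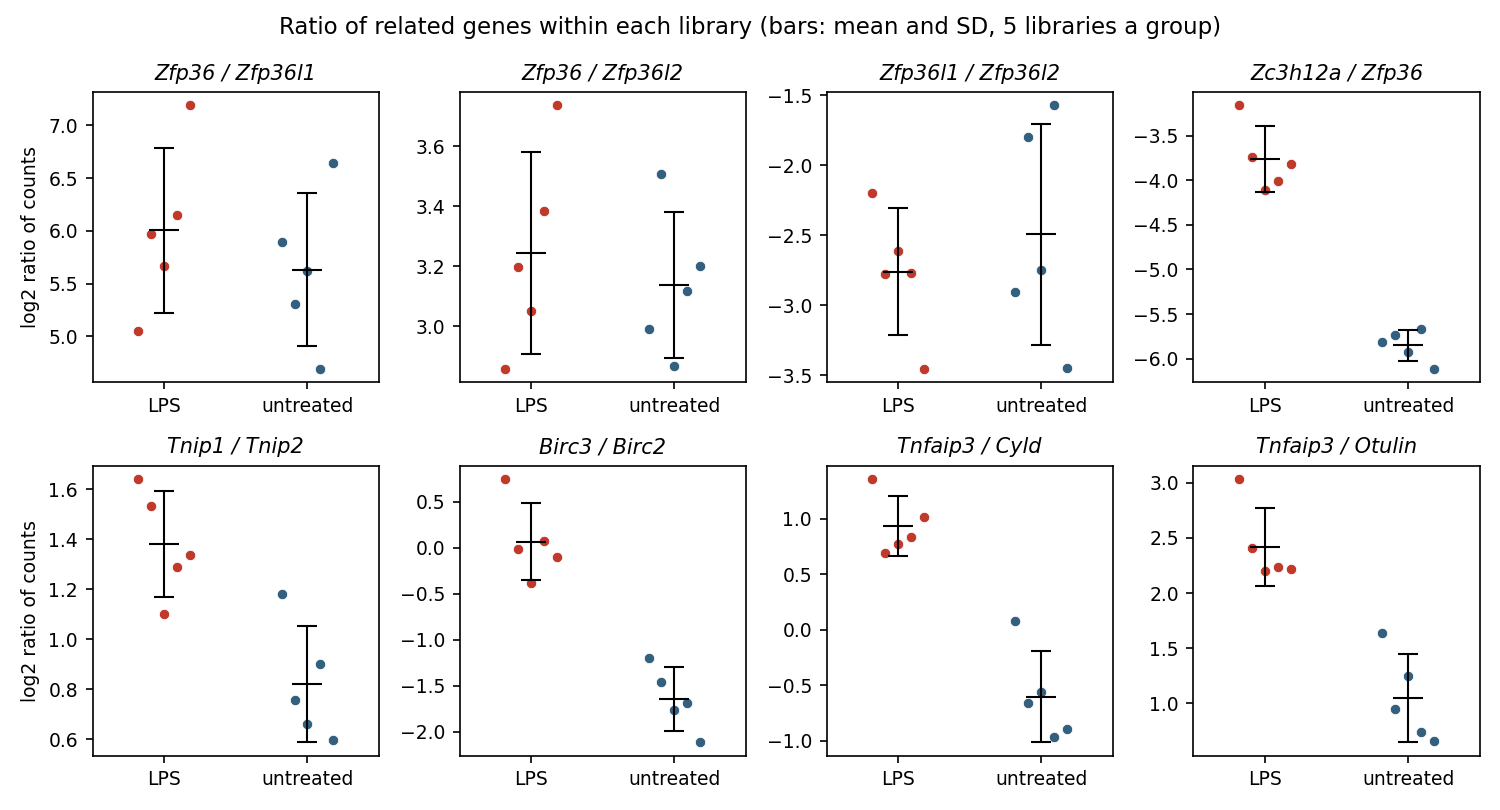
Log2 ratio of the counts of related genes within each library, LPS (red) left of untreated (blue), with mean and SD over 5 libraries a group. The groups are separated for Zc3h12a to Zfp36, Birc3 to Birc2, Tnfaip3 to Cyld and Tnfaip3 to Otulin, while 1 LPS library lies within the untreated range for Tnip1 to Tnip2 and the 3 ratios among Zfp36, Zfp36l1 and Zfp36l2 overlap.

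The sorted cells were rich in beta cell transcripts, with a summed level of 101845 to 133893 CPM over 10 markers in LPS and 118123 to 136907 CPM in untreated libraries, most of it Ins2 and Ins1. Of the 10 beta cell markers 3 were called lower in LPS libraries, with log2 fold changes of -0.86 for the glucose transporter gene Slc2a2, -0.59 for the zinc transporter gene Slc30a8 and -0.64 for the urocortin gene Ucn3 (edgeR adjusted p of 4.30e-05, 7.37e-05 and 0.00143). Transcripts of alpha and delta cells were present too, with Gcg at 4017 to 8749 CPM in LPS and 4839 to 14047 CPM in untreated libraries. Sst was at 4749 to 8674 CPM in LPS and 5788 to 7842 CPM in untreated libraries. In such bulk RNA a change in the number of cells of a type and a change in RNA per cell cannot be told apart. Over the 14 macrophage markers the sum was 36.6 to 47.2 CPM in LPS and 29.3 to 42.2 CPM in untreated libraries. Ptprc had 0 counts in every library, and 12 of the 14 were under 1 CPM. Cd68 and C1qa made up nearly all of the sum. Cd68 was called higher, at 26.8 ± 4.77 CPM in LPS and 16.7 ± 2.78 CPM in untreated libraries (SD, n = 5 each; edgeR adjusted p = 0.0141), while C1qa, at 14.7 ± 1.85 CPM in LPS and 18.7 ± 3.69 CPM in untreated libraries, was not called (adjusted p = 0.213). Of the 10 lymphocyte markers 5, Cd3e, Cd3d, Cd3g, Ms4a1 and Nkg7, had 0 counts in every library, and the sum was 1.23 to 2.77 CPM in LPS and 2.25 to 3.60 CPM in untreated libraries. The summed ductal markers were 569 to 719 CPM in LPS and 493 to 623 CPM in untreated libraries, and 2 of the 7, Spp1 and Muc1, were called higher. Acinar markers summed to 133 to 624 CPM in LPS and 233 to 463 CPM in untreated libraries, and mesenchymal markers to 3.17 to 25.4 CPM in LPS and 4.47 to 89.9 CPM in untreated libraries.

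The 10 endothelial markers summed to 9.90 to 15.7 CPM in LPS and 12.2 to 40.7 CPM in untreated libraries, and 1 of them, Kdr, was called lower (log2 fold change -3.12, edgeR adjusted p = 0.0473). None of the 9 marker lists passed adjustment over the lists (two-sided exact permutation, adjusted p = 0.143 for the endothelial and ductal lists, unadjusted p = 0.0317 for each). ENSMUSG00000119584, an identifier with no symbol in the tables used, took 0.227 to 0.427% of counts in LPS and 0.366 to 0.942% in untreated libraries (exact permutation p = 0.0159, or 0.0476 adjusted over the 3 measures used as covariates). With the mean level of the endothelial markers as a covariate, 3 of the 10 genes were called higher, beside 1.1% of all genes tested. Zfp36 (log2 fold change 0.34 ± 0.12 SE, edgeR adjusted p = 0.315) and Tnip1 (0.54 ± 0.13 SE, adjusted p = 0.0739) lost their calls. With the share of ENSMUSG00000119584 as a covariate, 3 of the 10 genes were called higher, beside 0.997% of all genes tested. Zfp36 (log2 fold change 0.42 ± 0.14 SE, edgeR adjusted p = 0.285) and Tnfaip3 (1.31 ± 0.36 SE, adjusted p = 0.145) lost their calls. Without a covariate the log2 fold changes were 0.42 ± 0.09 for Zfp36, 1.41 ± 0.22 for Tnfaip3 and 0.67 ± 0.10 for Tnip1 (SE). Zc3h12a and Birc3 kept their calls under both. The part of endothelial RNA or of this identifier in the results was not tested beyond these fits.

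Tnfaip3, Birc3, Zfp36, Zfp36l1, Zfp36l2 and Cyld also carry AU-rich letters of the kind that tristetraprolin binds. The heptamer TATTTAT was counted in the longest annotated 3′ UTR of each gene in GENCODE M21 on GRCm38. It occurred in 6 of the 10 genes and in 30.6% of the 13003 genes tested that had a 3′ UTR. Zfp36 held 3 in 774 bases, Birc3 3 in 1525, Zfp36l1 3 in 1835 and Zfp36l2 3 in 1822. Tnfaip3 held 2 in 1821 bases and Cyld 2 in 4932, while Zc3h12a, Tnip1, Tnip2 and Otulin held none. A longer 3′ UTR has more room for a match, and the median length over all genes tested was 1196 bases. Per kilobase of 3′ UTR there were 1.05 in the 10 genes, 0.406 in Cyld and 0.290 in all genes tested. The 30 bases with the most ATTTA pentamers are shown for the called genes among them and for Tnf and Cxcl1, known targets of tristetraprolin, with each pentamer in capitals and T in place of U.
Birc3: ATTTATTTATTTATTTAaaagATTTATTTA
Zfp36: tgggccctttATTTAtgacgactttATTTA
Tnfaip3: tttATTTAttatgaacttccaagttATTTA
Tnf: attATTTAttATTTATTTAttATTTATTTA
Cxcl1: gagggtcctATTTATTTAtgtATTTATTTA

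The Birc3 stretch held 6 pentamers, the Tnf stretch 5, the Cxcl1 stretch 4 and the Zfp36 and Tnfaip3 stretches 2 each. These letters describe the reference transcripts, and mRNA stability was not measured here.

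Of the mRNAs known to be destroyed by the products of Zc3h12a or Zfp36, mostly from work in macrophages, 30 were listed and 21 passed the filter on low counts. Of these 11 were higher in LPS libraries, 0 were lower and 10 were not called, beside the 2.84% called higher over all genes tested. At an unadjusted edgeR p under 0.05, by DESeq2 and by limma-voom 0 of them were lower too. The median log2 fold change over the 21 was 0.76. Ier3, an early response gene with a role in survival, was at 28.3 ± 3.00 CPM in LPS and 13.2 ± 1.23 CPM in untreated libraries (SD, n = 5 each). Its log2 fold change was 1.10 ± 0.09 (SE), with an edgeR adjusted p of 2.72e-05. Lcn2, which encodes the iron-siderophore binder lipocalin, was at 792 ± 283 CPM in LPS and 51.0 ± 23.9 CPM in untreated libraries (log2 fold change 3.96 ± 0.37 SE, edgeR adjusted p = 4.11e-05). Nfkbiz encodes a nuclear IkB protein that adjusts NF-kB target choice, and it was at 279 ± 36.0 CPM in LPS and 143 ± 12.6 CPM in untreated libraries (log2 fold change 0.96 ± 0.09 SE, edgeR adjusted p = 4.63e-05). Cxcl1, a neutrophil chemokine, was at 8.74 ± 3.16 CPM in LPS and 1.00 ± 0.615 CPM in untreated libraries (log2 fold change 3.13 ± 0.35 SE, edgeR adjusted p = 0.000164). Also called higher were Tnf, Csf1, Lif, Ccl2, Plaur, Nfkbid and Pim1. Tnf and Ccl2 had 0 counts in at least 1 untreated library and passed the filter through their LPS libraries. Cxcl2, which was not called, had 75 counts over the LPS and 20 over the untreated libraries and passed mainly through its LPS libraries. These genes stay in the 21 and in its median, which can raise both the count and the median. The list was also chosen with earlier results of these data known, so the count and the median over the 21 are descriptions. With the endothelial covariate, and likewise with the share of ENSMUSG00000119584, 5 of the 21 were called higher, beside 1.1% and 0.997% of all genes tested. These 11 transcripts, like Zc3h12a and Zfp36, were higher in the LPS group, and a link between them was not tested. The groups overlapped in Plaur, with LPS 8 at 1.95 CPM and untreated 5 at 2.46 CPM.

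A list of 41 genes, called the decay machinery here, held CCR4-NOT, decapping, exosome and other decay factors. It also held relatives of Zc3h12a, other RNA-binding proteins and the kinase genes Mapkapk2 and Mapk14. All were tested. Of them 2 were higher, beside the 2.84% over all genes tested, and 0 were lower, with a median log2 fold change of -0.01. The 2 were Zc3h12d and Mapkapk2, neither of them a CCR4-NOT, decapping or exosome gene. At an unadjusted edgeR p under 0.05 only Cnot7, which encodes a deadenylase of CCR4-NOT, was lower, and DESeq2 and limma-voom called 0 lower. Zc3h12d, a relative of Zc3h12a, was at 1.39 ± 0.253 CPM in LPS and 0.265 ± 0.177 CPM in untreated libraries (SD, n = 5 each). Its log2 fold change was 2.38 ± 0.40 (SE), with an edgeR adjusted p of 0.00362. It had 32 counts over the untreated libraries and passed the filter through its LPS libraries. It lost its call with the endothelial covariate (adjusted p = 0.0774) and the share covariate (adjusted p = 0.147). Mapkapk2 encodes the kinase that phosphorylates tristetraprolin and so stabilises its targets. It was at 123 ± 9.94 CPM in LPS and 95.8 ± 11.5 CPM in untreated libraries (log2 fold change 0.36 ± 0.08 SE, edgeR adjusted p = 0.0313). Its groups overlapped slightly, and the call held only without untreated 1 or without LPS 7 among the 10 fits that left out a library (adjusted p up to 0.105).

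Among 37 genes that write, read, cut or relay ubiquitin chains, a list that also holds Usp18, which acts on ISG15, 36 were tested. Of these 3 were higher, beside the 2.84% over all genes tested, and 0 were lower, with a median log2 fold change of 0.02. At an unadjusted edgeR p under 0.05 only Map3k7, which encodes the kinase TAK1, was lower, and DESeq2 and limma-voom called 0 lower. Usp18, an interferon-induced protease that removes ISG15 from proteins, was at 26.8 ± 1.83 CPM in LPS and 15.5 ± 0.736 CPM in untreated libraries (SD, n = 5 each). Its log2 fold change was 0.79 ± 0.07 (SE), with an edgeR adjusted p of 4.11e-05. Ripk2, the kinase that relays NOD receptor signals, was at 19.4 ± 3.59 CPM in LPS and 13.2 ± 1.01 CPM in untreated libraries (log2 fold change 0.56 ± 0.12 SE, edgeR adjusted p = 0.0193). Without untreated 2, untreated 4 or LPS 7 the call of Ripk2 was lost (adjusted p of 0.0629, 0.0523 and 0.0537). Optn, whose product binds ubiquitin chains, was at 39.9 ± 4.08 CPM in LPS and 32.4 ± 1.49 CPM in untreated libraries (log2 fold change 0.30 ± 0.08 SE, edgeR adjusted p = 0.0435). Its call held only without untreated 1 or without LPS 8 among the 10 such fits (adjusted p up to 0.119).

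**Figure D4:**
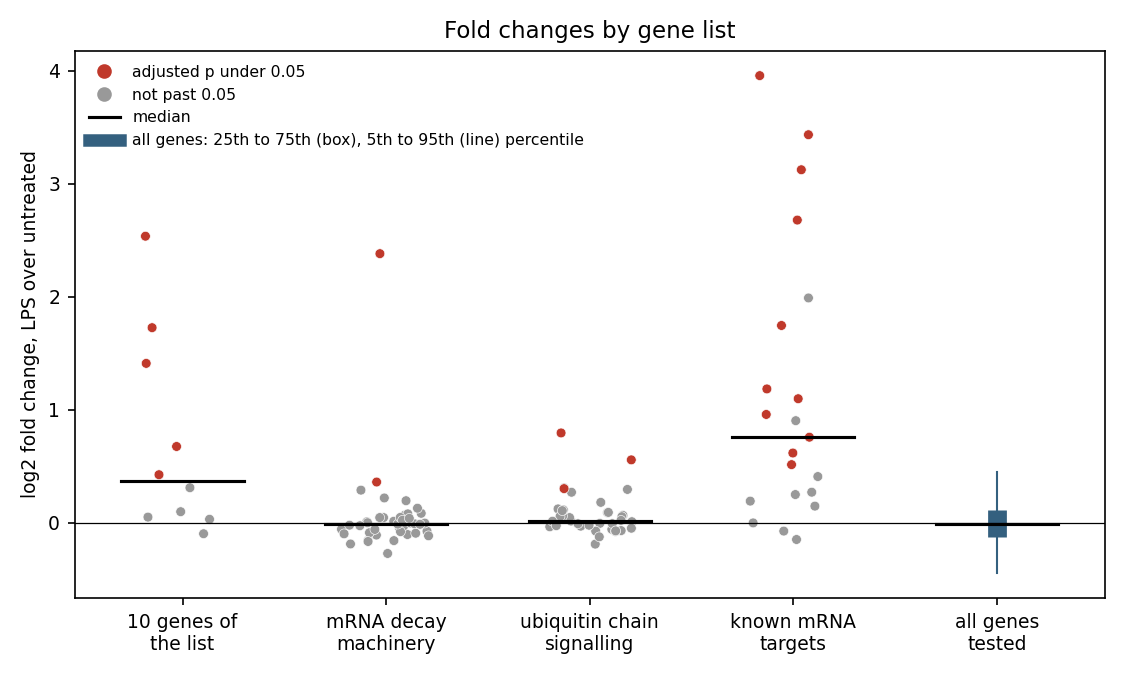
Log2 fold change, LPS over untreated, of every tested gene in the list of 10 genes, the mRNA decay machinery, the ubiquitin chain signalling list and the known mRNA targets, with red points for an edgeR adjusted p under 0.05, a black line for the median and the percentiles of all genes tested at the right. The medians are 0.37, -0.01, 0.02 and 0.76, against -0.01 over all genes tested.

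The genes with the profile most like each called gene were found by the root mean square difference of log2 CPM, each profile centred on its own mean, over the 10 libraries. The 10 libraries share the contrast, so the likeness reflects it as well as the variation within groups. For Tnfaip3 the nearest were Relb (0.204) and Nfkb2 (0.229), which encode subunits of the non-canonical NF-kB pathway, and the interferon-induced Rsad2 (0.231). Nearest to Birc3 were the kinase gene Lyn (0.205), the chemokine gene Ccl28 (0.213) and Ceacam1 (0.281), which encodes an adhesion protein. For Zc3h12a they were Stra6l (0.228), Prr29 (0.242) and the interferon-induced GTPase gene Gbp5 (0.333). Tnip1 was most like Steap1 (0.116), Unc93b1 (0.127), whose product carries nucleic acid-sensing Toll-like receptors, and Tmprss2 (0.129). Zfp36 was most like the transporter gene Slc35d2 (0.0837), Txn1 (0.0951), which encodes thioredoxin, and Slc37a1 (0.101).

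Counts of a few of the 10 genes could include reads of neighbours, since the use of strand in counting is not given in the sources used here. Antisense or opposite-strand genes overlap the exons of Zfp36 (133 counts over all libraries) and Zfp36l2 (56 counts). These are few beside the counts of Zfp36 and Zfp36l2, but reads that fall in the shared exons were not counted apart. Otulin overlaps the protein-coding gene Ank on the opposite strand, which had 55220 counts over all libraries, though not in annotated exons. Zfp36l1 also has an opposite-strand gene, Gm26669, that overlaps its exons. No count was available for Gm26669, and it was not analysed here. The near copies Zfp36l3 and Zfp36l1-ps had 0 and 5 counts over all libraries.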

How the data were processed

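RNA-seq was done on 10 libraries of sorted beta cells, 5 from LPS-treated and 5 from untreated islets, grouped by their titles. The deposited values are raw counts per Ensembl gene, 1 table per library. Per the submitters' processing notes, the authors used GRCm39 and the tools DESeq2, HTSeq, STAR, SAMtools, Trimmomatic and FastQC. The sources used here give no tool version, annotation release or strand setting. The reference is not of the NOD strain, which can lower counts where the strains differ. Rows that name no gene held 15.4 to 20.2% of reads and were left out. Gene totals ran from 18465188 (LPS 9) to 27379892 (LPS 7). Within groups the chi-square per gene between library pairs was 6.14 or more, so each counted as 1 replicate. A gene with 0 counts over a group has an upper limit of 3 counts, 0.0269 CPM over the LPS and 0.0246 CPM over the untreated libraries, which covers counting error only.

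Counts were analysed in R 4.3.3 with edgeR 4.0.16 (filterByExpr, minimum count 10 and total 15, TMM, quasi-likelihood F test, Benjamini-Hochberg over 15942 genes, threshold 0.05), all 10 libraries and no covariate. Symbols matched 52073 of 56748 identifiers. CPM values use TMM library sizes. Standard errors are on the log2 scale. For edgeR the SE is the absolute log2 fold change divided by the square root of the F statistic. Log2 count ratios used a pseudocount of 0.5. Likeness used log2 CPM with a prior count of 2. The fit was tested on simulated data with known changes. Alternatives were other scalings and filters, DESeq2 1.42.0, limma 3.58.1 (voom), covariates, 1 surrogate variable (sva 3.50.0), a pseudocount of 5 and each library left out. Ratios, levels and plots used Python 3.11.15 with matplotlib 3.10.9 and pandas 2.3.3.

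The members, the lists and the markers were chosen with earlier results of these data known. All 10 members are named. Of each pathway list up to 4 called genes per direction with the smallest adjusted p are described, of each marker list the 2 most abundant were eligible, and 3 nearest profiles are given per called member. Genes named beyond this rule are the remaining called targets, the markers Slc2a2, Slc30a8, Ucn3, Kdr and Muc1, markers with 0 counts, Cnot7, Map3k7 and those in the other observations, chosen after their values were seen. Lengths and 3′ UTRs come from GENCODE M21 and promoters from RefSeq, both on GRCm38, and no position was converted between builds.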

Additional observations from a re-analysis of the deposited data

Results flagged for a closer look

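Of 20 sets of 5 libraries checked, the 10 genes in each group, 3 held a library whose gap to its nearest neighbour exceeded 0.71 of the range of its group, where chance gives about 1 in 20. Tnfaip3 was at 248.28 CPM in LPS 6, against 138 to 141 CPM in the other LPS libraries. Birc3 was at 111.463 CPM in LPS 6, against 46.8 to 64.4 CPM in the other LPS libraries. Without LPS 6 both genes stayed called. Otulin was at 26.5544 CPM in LPS 7, below the 29.3 to 30.2 CPM of the other LPS libraries. The cause of these values was not tested.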

How the results depend on the processing

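No paired analysis was made, because the labels give the LPS and untreated libraries no shared replicate number. Zc3h12a, Birc3, Usp18, Ier3, Lcn2, Nfkbiz and Cxcl1 kept their direction and call in all 23 alternatives. The endothelial covariate gave 3 genes of the 10 called higher, 190 of all genes, 0 of the decay machinery, 1 ubiquitin gene and 5 targets. The share of ENSMUSG00000119584 gave 3, 181, 0, 1 and 5. DESeq2 called 976 of all genes, voom with quality weights 994 and the surrogate variable 1335, against 601. The decay machinery had 4 higher with voom weights, beside 4.35% of all genes tested, and 1 with the macrophage covariate, beside 2.5%. With the surrogate variable it had 2 lower, beside 2.95% of all genes tested. That fit gave 5 higher ubiquitin genes, beside 5.42% of all genes tested called higher. The surrogate variable rose with library number in both groups. It was -0.53, -0.11, 0.04, 0.19 and 0.53 in LPS 6 to 10. In untreated 1 to 5 it was -0.41, -0.14, -0.06, 0.06 and 0.44. Whether libraries at the same place in this order share a preparation is not given. What the variable stands for was not tested. With 1 library left out, 4 to 5 of the 10 genes, 401 to 624 of all genes, 1 to 2 decay genes, 1 to 4 ubiquitin genes (1 without LPS 7) and 9 to 13 targets were higher or, for all genes, called. Signs turned for uncalled genes only: Birc2 (0.042 with the share, -0.037 to 0.014 with a library left out), Otulin (-0.029 with the endothelial covariate) and Zfp36l1 (-0.0021 without the 20 most abundant genes in library sizes, -0.044 with voom weights, -0.23 to 0.27 with a library left out, and -0.29 without both untreated 1 and LPS 6, a choice made after seeing the data, which still called 5 of the 10 genes). The cause was not tested. The 48-hour point is the only one and cell makeup after sorting was not measured apart from transcripts. Zfp36l1 had 745 counts over the LPS and 802 over the untreated libraries, with SDs of 2.84 and 2.89 CPM around means of 6.78 and 6.63 CPM. Low counts limit genes such as Tnip3.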

Other observations

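Several genes tied to these brakes fell below the filter on low counts and were not tested. Tnip3, which encodes another ABIN adaptor, had 64 counts over the LPS and 4 over the untreated libraries, or 0.142 to 1.12 CPM in LPS and 0 to 0.127 CPM in untreated libraries. Csf3, a granulocyte growth factor whose mRNA carries AU-rich elements, had 78 counts over the LPS and 4 over the untreated libraries, and every LPS library lay above every untreated one. Cxcl5, a neutrophil chemokine, had 120 counts over the LPS and 6 over the untreated libraries, with LPS libraries between 0 and 2.19 CPM. Il6, a classic target of the Zc3h12a product, had 4 counts over the LPS and 8 over the untreated libraries, and Ccl3 had 0 in both groups, which allows up to 0.0269 CPM over the LPS and 0.0246 CPM over the untreated libraries. Mapk14, the kinase upstream of Mapkapk2, had separated groups at 174 ± 9.86 CPM in LPS and 150 ± 7.30 CPM in untreated libraries (SD, n = 5 each), with an edgeR adjusted p of 0.0663.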
